A study of Mus musculus with 8 samples.

Results

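The *Atf4* stress response and serine synthesis genes are 10 of the 48440 genes counted in this series. They were chosen by name, with earlier results of these data known: *Atf4*, *Ddit3*, *Trib3*, *Chac1*, *Sesn2*, *Asns*, *Psat1*, *Phgdh*, *Shmt2* and *Mthfd2*. All 10 were found by their GENCODE M21 symbols and all 10 passed the filter on low counts. In the cells that carry the ASAY insertion, all 10 had a negative log2 fold change against WT, beside a median of -0.005 over all tested genes. For *Psat1* (-0.052), *Sesn2* (-0.038) and *Shmt2* (-0.027) the difference did not pass on the p-value. *Sesn2* and *Shmt2* changed sign in fits that left out a library. *Ddit3*, *Trib3* and *Chac1* fell past both thresholds of the test, 3 of 10. Of all tested genes 21.3% were called there in either direction and 9.85% were called lower. In cells that lack exon 6 of *Tbxt* on both alleles only *Ddit3* passed both thresholds, 1 of 10 beside 12.7% of all tested genes. In cells that lack it on 1 allele edgeR called 0 of 10, beside 13.5% of all tested genes.

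*Atf4* is a transcription factor of the integrated stress response. Kinases that sense amino acid shortage, unfolded protein in the endoplasmic reticulum (ER), double-stranded RNA or haem shortage phosphorylate the translation factor eIF2, which lowers protein synthesis overall while *Atf4* mRNA is translated more. *Atf4* then binds gene promoters together with C/EBP proteins and turns on stress regulators (*Ddit3*, *Trib3*, *Chac1*, *Sesn2*), asparagine synthesis (*Asns*), the serine pathway (*Phgdh*, *Psat1*) and the mitochondrial one-carbon enzymes that use serine (*Shmt2*, *Mthfd2*). Pluripotent stem cells divide rapidly and draw on serine and one-carbon units for nucleotide synthesis. Because *Atf4* is controlled largely at translation, its mRNA level does not measure its protein.

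Mouse ES cells of 4 genotypes were differentiated in N2/B27 medium with the GSK3 inhibitor CHIR99021, and RNA was sequenced at day 1, with 2 libraries per genotype. WT cells are the unedited genotype, *Tbxt* delE6/delE6 cells lack exon 6 of *Tbxt* on both alleles, *Tbxt* delE6/+ cells lack it on 1 allele, and *Tbxt* Insert ASAY cells carry a pair of human Alu elements in introns of *Tbxt*. The methods of the study give the insertion as homozygous. All are derivatives of MK6, an ES line of the C57BL/6J strain, and were differentiated without feeder cells. Exon 6 was deleted in feeder-free culture and the Alu elements were inserted on feeder fibroblasts. The *Tbxt* delE6/delE6 libraries come from different clones. By the methods of the study, blasticidin selection followed the delivery of DNA for the exon 6 deletion. The insertion clones passed through puromycin selection, Cre removal of the marker and ganciclovir before they were used. The question put to these genes was whether their levels differed between the genotypes.

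Stranded poly(A) libraries were made, and 24618587 to 28445952 reads per library were counted on genes. Levels are given as CPM, the reads of a gene scaled to a common library size after TMM normalization. Differences were tested by edgeR's quasi-likelihood test, with SE for the standard error of a log2 fold change and p-values adjusted over 17049 genes (Benjamini-Hochberg). A gene counted as called when the adjusted p was under 0.05 and the log2 fold change larger than 0.5 in either direction. The 3 comparisons with WT share the same 2 WT libraries. Replicates of *Tbxt* delE6/delE6 differed most, with a chi-square per degree of freedom of 11.4 against 2.79 to 3.47 in the other genotypes. Reads on *Tbxt* (T in the annotation) numbered 42 to 47 per WT library, 22 to 26 in *Tbxt* delE6/delE6, 39 to 54 in *Tbxt* delE6/+ and 29 to 30 in *Tbxt* Insert ASAY, and a count per gene cannot separate the forms with and without exon 6. The summed level of 8 ES cell markers was 713 to 714 CPM in WT, 461 to 581 CPM in *Tbxt* delE6/delE6, 531 to 539 CPM in *Tbxt* delE6/+ and 597 to 606 CPM in *Tbxt* Insert ASAY cells, with 0 of the 8 at 0 in each genotype. Among them *Zfp42* went the other way in *Tbxt* Insert ASAY cells, with 39.2 to 40.2 CPM beside 28.7 to 29.4 CPM in WT. The *Tbxt* delE6/delE6 libraries also lay above those of WT for *Zfp42*. *Sox2* went the other way in *Tbxt* delE6/+ cells, with 109 to 117 CPM beside 66.2 to 71.2 CPM in WT. The summed level of 9 fibroblast markers was 44.1 to 48.9 CPM in WT and 30.5 to 37.6 CPM in *Tbxt* delE6/delE6. It was 44.1 to 44.6 CPM in *Tbxt* delE6/+ and 21.3 to 21.4 CPM in *Tbxt* Insert ASAY cells, where 1 of them was at 0. In *Tbxt* delE6/+ cells *Col1a2* (7.38 to 8.83 CPM beside 4.98 to 5.25 in WT), *Thy1* and *Pdgfrb* were higher. *Col1a1*, *Col3a1*, *Dcn*, *Lum* and *Acta2* were lower there. In *Tbxt* delE6/delE6 cells *Dcn* went the other way from the sum, with 2.87 to 3.01 CPM beside 2.06 to 2.31 CPM in WT. The summed level of 4 neural progenitor markers was 99.0 to 102 CPM in WT and 145 to 193 CPM in *Tbxt* delE6/delE6. It was 97.8 to 99.5 CPM in *Tbxt* delE6/+ and 114 to 124 CPM in *Tbxt* Insert ASAY cells, where 1 was at 0. *Nes* made up most of the neural sum, with 89.7 to 94.1 CPM in WT, 136 to 185 CPM in *Tbxt* delE6/delE6 and 68.2 CPM in *Tbxt* delE6/+. In *Tbxt* delE6/+ cells *Sox1* (23.6 to 24.5 CPM beside 5.36 to 6.32 in WT) and *Pax6* (5.93 to 6.74 beside 2.12 to 3.0) were higher. In *Tbxt* delE6/delE6 cells *Pax6* was lower, at 1.74 to 1.83 CPM. The part of these differences in the results below was not tested, and in such bulk samples fewer cells of a type and less RNA per cell cannot be told apart.

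Promoter sequences of all 10 genes, from 250 bases before to 50 bases after the RefSeq start sites, were searched for the C/EBP-ATF response element to which *Atf4* binds with a C/EBP partner. The letters searched were TGATGNAAN, on both strands, so that the other strand reads NTTNCATCA. The element was found in the promoters of *Chac1*, *Trib3* and *Asns*, 3 of the 10 genes, and in 3.95% of all 32851 RefSeq promoters. Bases outside this window were not searched, so a missing match does not show that a gene lacks the element. The 30 bases around each match are shown because these genes include 2 of the 3 that fell past both thresholds in *Tbxt* Insert ASAY cells, with the element in capitals and each sequence read on the strand of its gene (RefSeq, GRCm38.p6).
Chac1, chr2:119351038-119351067, plus strand: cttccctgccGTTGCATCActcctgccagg
Trib3, chr2:152344028-152344057, minus strand: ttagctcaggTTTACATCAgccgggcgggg
Asns, chr6:7693213-7693242, minus strand: cccagccacaTGATGAAACttcccgcacgc
The *Chac1* element starts 194 bases upstream of the start site, that of *Asns* 23 bases upstream and that of *Trib3* 14 bases downstream. In *Chac1* and *Trib3* the letters run on the strand opposite to the gene, and in *Asns* on the same strand.

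In WT cells the 10 genes were among the more abundant genes. Levels of different genes are compared per kilobase of exon. *Asns* was highest at 268 ± 9.22 CPM per kb (SD, n = 2), followed by *Atf4* at 227 ± 4.17, *Phgdh* at 208 ± 0.909 and *Psat1* at 136 ± 2.21 CPM per kb. *Trib3* at 92.7 ± 0.137, *Ddit3* at 91.5 ± 2.57 and *Shmt2* at 84.6 ± 2.67 CPM per kb came next, and *Trib3* and *Ddit3* differed by less than the spread of the *Ddit3* libraries. *Mthfd2* had 63.2 ± 0.195, *Sesn2* 54.8 ± 0.493 and *Chac1* 49.5 ± 1.47 CPM per kb. Of 16999 tested genes with a length, 0.929% were higher than *Asns* and 6.09% higher than *Chac1*. The genes lie on 7 chromosomes, with *Trib3* and *Chac1* on chromosome 2, *Asns* and *Mthfd2* on chromosome 6, *Ddit3* and *Shmt2* on chromosome 10, and *Phgdh*, *Sesn2*, *Atf4* and *Psat1* on chromosomes 3, 4, 15 and 19. *Mthfd2* and *Sesn2* each share bases with a further gene on the same strand, Gm43890 (9 to 59 reads per library) and Gm12981 (5 to 21 reads), and reads on the shared bases cannot be told apart.

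*Atf4* itself (ENSMUSG00000042406, chromosome 15, 80255184 to 80257541, plus strand of GRCm38) was lowest in *Tbxt* Insert ASAY cells. Its level was 541 and 528 CPM in the WT libraries, 596 and 527 CPM in *Tbxt* delE6/delE6, 482 and 491 CPM in *Tbxt* delE6/+ and 383 and 411 CPM in *Tbxt* Insert ASAY. The *Tbxt* Insert ASAY libraries lay below all 6 others, and the *Tbxt* delE6/delE6 libraries overlapped those of WT. The log2 fold change of *Tbxt* Insert ASAY against WT was -0.43 (SE 0.0568, adjusted p = 6.74e-05), which passes on the p-value and stays under the fold threshold. Against *Tbxt* delE6/delE6 cells it was -0.50 (SE 0.0569, adjusted p = 9.66e-05), at the edge of the fold threshold, and 9 of the alternatives tried put it past that threshold. Differences of *Tbxt* delE6/delE6 and *Tbxt* delE6/+ from WT did not pass, with log2 fold changes of 0.07 (95% interval -0.05 to 0.19) and -0.14 (95% interval -0.26 to -0.01, adjusted p = 0.087).

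**Figure D1:**
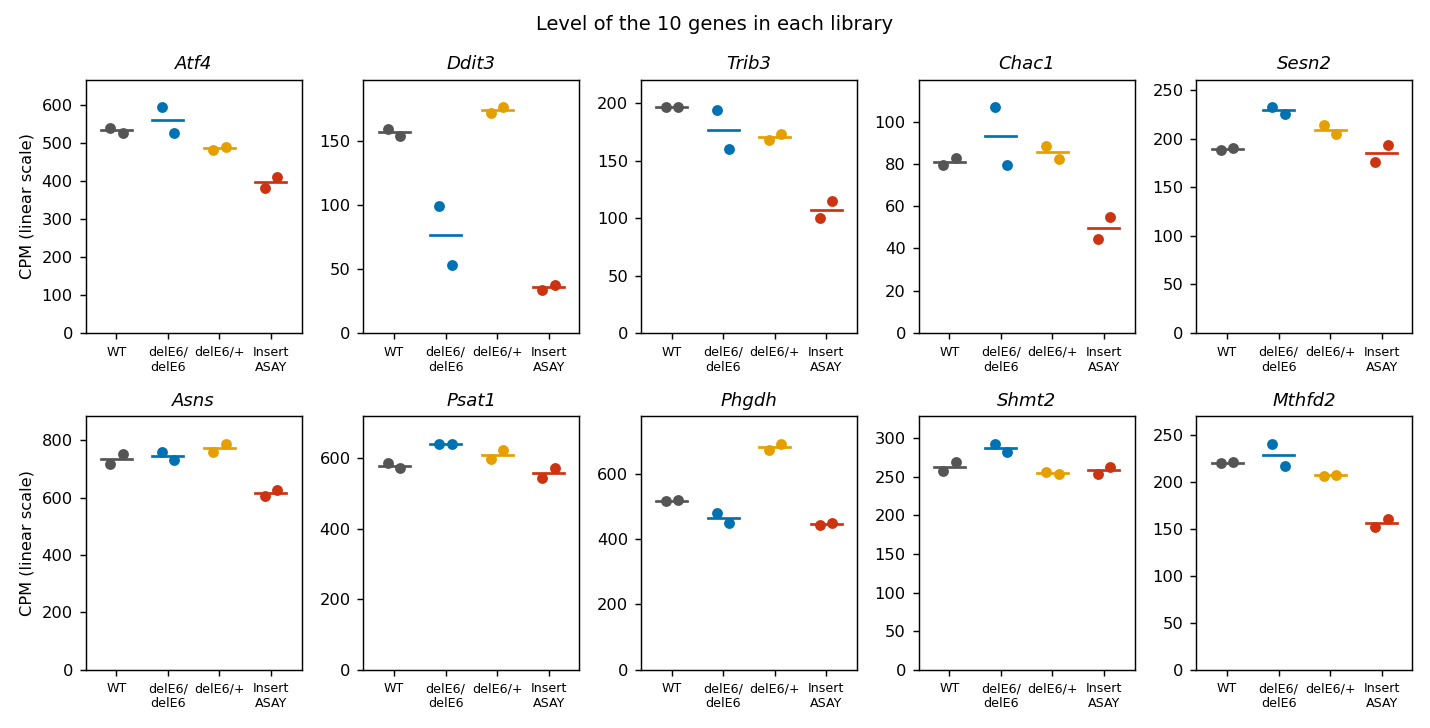
Level of each of the 10 genes in CPM on a linear axis that starts at 0, with 1 panel per gene. Points are the 2 libraries of each genotype and bars their mean. *Ddit3* stands at 33.7 and 37.9 CPM in *Tbxt* Insert ASAY against 154 and 160 CPM in WT, and *Phgdh* is highest in *Tbxt* delE6/+ at 674 and 693 CPM.

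*Ddit3*, which encodes the transcription factor CHOP that acts downstream of *Atf4* in prolonged stress, differed most. WT libraries had 160 and 154 CPM and *Tbxt* delE6/+ libraries 172 and 177 CPM. *Tbxt* delE6/delE6 libraries had 99.5 and 53.5 CPM, and *Tbxt* Insert ASAY libraries 33.7 and 37.9 CPM. The order was thus *Tbxt* delE6/+, WT, *Tbxt* delE6/delE6 and *Tbxt* Insert ASAY with no overlap between genotypes, and the difference between *Tbxt* delE6/+ and WT did not pass the test (log2 fold change 0.16, 95% interval -0.22 to 0.53). *Ddit3* fell 4.37-fold in *Tbxt* Insert ASAY cells against WT, a log2 fold change of -2.13 (SE 0.19, adjusted p = 4.72e-06). In *Tbxt* delE6/delE6 cells it fell 2.06-fold, a log2 fold change of -1.04 (SE 0.179, adjusted p = 0.000934). The direct comparison of *Tbxt* Insert ASAY with *Tbxt* delE6/delE6 cells gave -1.09 (SE 0.194, adjusted p = 0.00236). The fall in *Tbxt* delE6/delE6 cells and the difference between both homozygous genotypes were not called by the TREAT test, which asks for a change significantly past 0.5. The size of the *Tbxt* delE6/delE6 change rests on which of its libraries, 1 per clone, is used. It was -1.54 without the first of these libraries and -0.66 without the second, and the difference between *Tbxt* Insert ASAY and *Tbxt* delE6/delE6 cells was -0.59 and -1.47 without the same libraries. *Ddit3* lies on chromosome 10 from 127290774 to 127296288 and shares bases with *Mars* on the opposite strand. Stranded counts keep most of their reads apart, since the other strand holds 4.11% to 4.78% of stranded reads. *Mars* had 7213 to 8641 reads per library, beside 926 and 1037 on *Ddit3* in *Tbxt* Insert ASAY libraries. How many *Mars* reads were counted on *Ddit3* was not tested.

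*Trib3* encodes a pseudokinase that is induced by *Atf4* and *Ddit3* and restrains them. It had 197 and 197 CPM in WT, 194 and 160 CPM in *Tbxt* delE6/delE6, 168 and 173 CPM in *Tbxt* delE6/+ and 100 and 115 CPM in *Tbxt* Insert ASAY libraries. The last 2 lay below every other library. *Trib3* fell 1.83-fold in *Tbxt* Insert ASAY cells against WT, a log2 fold change of -0.87 (SE 0.0808, adjusted p = 5.81e-06). It was also lower there than in *Tbxt* delE6/delE6 cells, by -0.72 (adjusted p = 9.39e-05), and than in *Tbxt* delE6/+ cells, by -0.66 (adjusted p = 2.17e-05). By TREAT the fall against WT was called and the other 2 differences were not.

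*Chac1* encodes an enzyme that cleaves glutathione. Its level was 79.3 and 82.7 CPM in WT, 107 and 79.7 CPM in *Tbxt* delE6/delE6, 88.7 and 82.5 CPM in *Tbxt* delE6/+ and 44.4 and 55.0 CPM in *Tbxt* Insert ASAY libraries. *Chac1* fell 1.63-fold in *Tbxt* Insert ASAY cells against WT, a log2 fold change of -0.71 (SE 0.119, adjusted p = 0.000371). Against *Tbxt* delE6/delE6 and *Tbxt* delE6/+ cells the log2 fold changes were -0.91 (adjusted p = 0.000278) and -0.79 (adjusted p = 0.00012). By TREAT only the difference from *Tbxt* delE6/+ cells was called. *Sesn2* encodes a leucine sensor that holds back mTORC1. It had 189 and 191 CPM in WT, 233 and 226 CPM in *Tbxt* delE6/delE6, 214 and 205 CPM in *Tbxt* delE6/+ and 176 and 194 CPM in *Tbxt* Insert ASAY libraries. The log2 fold change of *Sesn2* in *Tbxt* delE6/delE6 cells was 0.27 (SE 0.052, adjusted p = 0.00189), under the fold threshold, and in *Tbxt* Insert ASAY cells -0.04 (95% interval -0.15 to 0.07).

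*Asns*, asparagine synthetase, had 716 and 752 CPM in WT, 761 and 731 CPM in *Tbxt* delE6/delE6, 759 and 789 CPM in *Tbxt* delE6/+ and 606 and 627 CPM in *Tbxt* Insert ASAY libraries. Both *Tbxt* Insert ASAY libraries lay below the other 6, and the log2 fold change against WT of -0.25 (SE 0.0451, adjusted p = 0.000588) is under the fold threshold. *Mthfd2*, the mitochondrial enzyme that oxidizes methylene-tetrahydrofolate, had 220 and 221 CPM in WT, 241 and 217 CPM in *Tbxt* delE6/delE6, 206 and 208 CPM in *Tbxt* delE6/+ and 152 and 161 CPM in *Tbxt* Insert ASAY libraries. Its log2 fold change in *Tbxt* Insert ASAY cells was -0.495 against WT (SE 0.0536, adjusted p = 1.64e-05), just inside the fold threshold and so not called, and -0.55 against *Tbxt* delE6/delE6 cells (adjusted p = 2.99e-05), which was called. Without the first *Tbxt* delE6/delE6 library these calls change places, at -0.504 and -0.489.

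For *Psat1* and *Shmt2* the measured differences were small. *Psat1*, which makes phosphoserine in the second step of serine synthesis, had 585 and 572 CPM in WT and 544 and 571 CPM in *Tbxt* Insert ASAY libraries, a log2 fold change of -0.05 (95% interval -0.15 to 0.04). In *Tbxt* delE6/delE6 libraries *Psat1* had 639 and 641 CPM, a log2 fold change of 0.15 (adjusted p = 0.0196), and in *Tbxt* delE6/+ libraries 596 and 622 CPM. *Shmt2*, the mitochondrial enzyme that splits serine into glycine and a one-carbon unit, had 257 and 269 CPM in WT, 293 and 282 CPM in *Tbxt* delE6/delE6, 256 and 254 CPM in *Tbxt* delE6/+ and 254 and 263 CPM in *Tbxt* Insert ASAY libraries. Its log2 fold change in *Tbxt* Insert ASAY cells was -0.03 (95% interval -0.12 to 0.07). Within the serine route, *Mthfd2* and *Phgdh* thus passed on the p-value in *Tbxt* Insert ASAY cells, while *Psat1* and *Shmt2* did not.

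**Figure D2:**
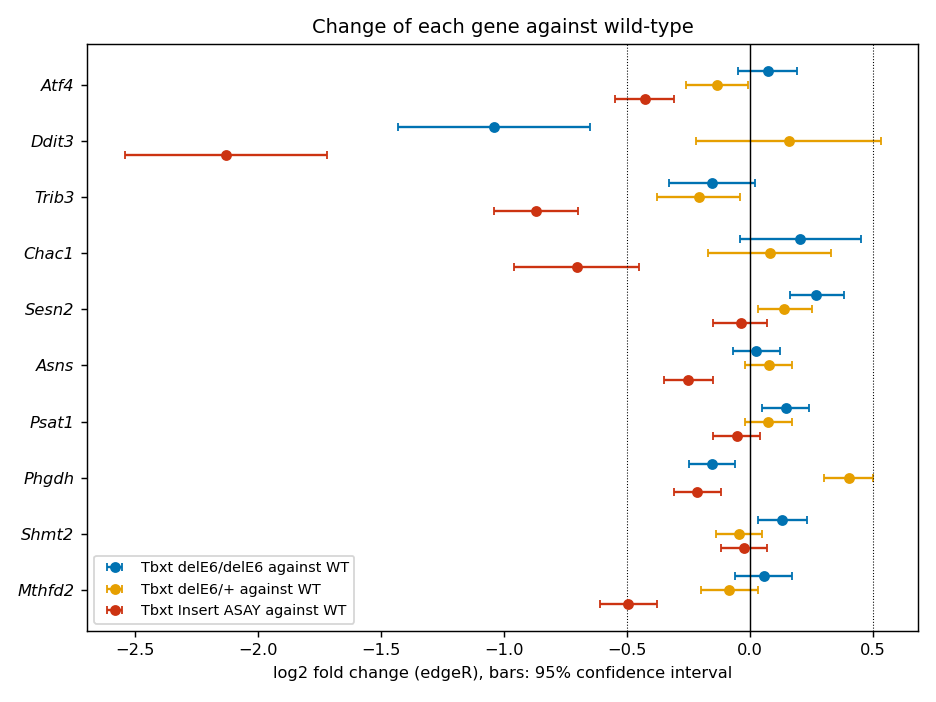
Log2 fold change of each of the 10 genes against WT in the 3 edited genotypes, from the edgeR fit, with 95% confidence intervals as bars and the fold threshold of 0.5 as dotted lines. In *Tbxt* Insert ASAY cells *Ddit3* (-2.13), *Trib3* (-0.87) and *Chac1* (-0.71) lie past the threshold, and in *Tbxt* delE6/delE6 cells *Ddit3* (-1.04) does.

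Counted over the 10 genes, 3 fell and 0 rose in *Tbxt* Insert ASAY cells against WT, where 9.85% of all tested genes were called lower and 21.3% in either direction. At an adjusted p under 0.05 and any fold, 7 of the 10 were lower and 0 higher, and 24.1% of all tested genes were lower. The *Tbxt* Insert ASAY libraries did not overlap those of WT for 8 of the 10, and neither did those of 77.0% of all genes, a share close to that of the 10. The median log2 fold change of the 10 was -0.34, beside a median of -0.01 over all genes. In *Tbxt* delE6/delE6 cells 1 of the 10 was called, lower, beside 12.7% of all genes called in either direction and 6.59% called lower, and the median was 0.06. At any fold 5 of the 10 passed on the p-value there, beside 35.4% of all genes. In *Tbxt* delE6/+ cells 0 were called by edgeR, beside 13.5% of all genes, and *Phgdh* alone passed on the p-value, beside 31.6% of all genes (the median of the 10 was 0.08). The libraries did not overlap those of WT for 6 of the 10 in *Tbxt* delE6/delE6 cells and 9 of the 10 in *Tbxt* delE6/+ cells, beside 67.6% and 69.3% of all genes. The DESeq2 Wald test also called 0 of the 10 in *Tbxt* delE6/+ cells.

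Between the edited genotypes, 4 of the 10 genes were lower in *Tbxt* Insert ASAY than in *Tbxt* delE6/delE6 cells, where 2.38% of all genes were called lower and 5.16% in either direction. They were *Ddit3*, *Trib3*, *Chac1* and *Mthfd2*. All 10 genes had both *Tbxt* Insert ASAY libraries below both *Tbxt* delE6/delE6 libraries. For 56.2% of all genes the libraries of this pair did not overlap, counted in either direction. Against *Tbxt* delE6/+ cells, 4 of the 10 were lower in *Tbxt* Insert ASAY cells (*Ddit3*, *Trib3*, *Chac1* and *Phgdh*), beside 13.0% of all genes called lower and 27.5% called in either direction. For 9 of the 10 the libraries of this pair did not overlap, as for 79.2% of all genes. *Tbxt* delE6/+ cells had 2 of the 10 higher than *Tbxt* delE6/delE6 cells, *Ddit3* and *Phgdh*, beside 22.2% of all genes called in either direction and 11.2% called higher. By TREAT 0 of the 10 were called between *Tbxt* Insert ASAY and *Tbxt* delE6/delE6 cells.

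*Phgdh*, the enzyme that commits glucose carbon to serine, was highest in *Tbxt* delE6/+ cells. It had 517 and 520 CPM in WT, 481 and 450 CPM in *Tbxt* delE6/delE6, 674 and 693 CPM in *Tbxt* delE6/+ and 444 and 449 CPM in *Tbxt* Insert ASAY libraries. The *Tbxt* delE6/+ libraries lay above the 6 others, with a log2 fold change against WT of 0.40 (SE 0.0442, adjusted p = 2.08e-05), under the fold threshold. Against *Tbxt* delE6/delE6 cells *Phgdh* was higher by 0.56 (SE 0.0443, adjusted p = 8.22e-07, not called by TREAT), and *Tbxt* Insert ASAY cells lay below *Tbxt* delE6/+ cells by -0.62 (adjusted p = 3.32e-07). In *Tbxt* Insert ASAY cells the log2 fold change of *Phgdh* against WT was -0.22 (adjusted p = 0.0015) and in *Tbxt* delE6/delE6 cells -0.16 (adjusted p = 0.0161).

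*Phgdh* lies on chromosome 3, at 98313170 to 98339990 on the minus strand, and its neighbours moved with it in *Tbxt* delE6/+ cells. Of the 10 tested genes on each side, from 96868281 to 100685503, 11 of 20 were called higher and 0 lower against WT. Their median log2 fold change was 0.51. Of all tested genes 6.6% were called higher and 6.89% lower. Over all 848 tested genes of chromosome 3 the median was 0.32 and 306 were called, 242 higher and 64 lower, while the median of the 16201 genes on other chromosomes was -0.01. The neighbours *Notch2*, a receptor, and *Sec22b*, a vesicle SNARE, had log2 fold changes of 0.63 and 0.51 in *Tbxt* delE6/+ cells, and both were picked after their values were seen. In *Tbxt* delE6/delE6 and *Tbxt* Insert ASAY cells the medians of the 20 neighbours against WT were 0.03 and 0.03. Between *Tbxt* delE6/+ and *Tbxt* delE6/delE6 cells 7 neighbours were called higher and 1 lower (median 0.37), beside 11.2% of all genes called higher. Between *Tbxt* Insert ASAY and *Tbxt* delE6/+ cells 8 were called lower and 1 higher (median -0.30), beside 13.0% of all genes called lower. The change of *Phgdh* in *Tbxt* delE6/+ cells, 0.40, lay between the quartiles of its neighbours (0.18 and 0.64). DNA was not analysed here.

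**Figure D3:**
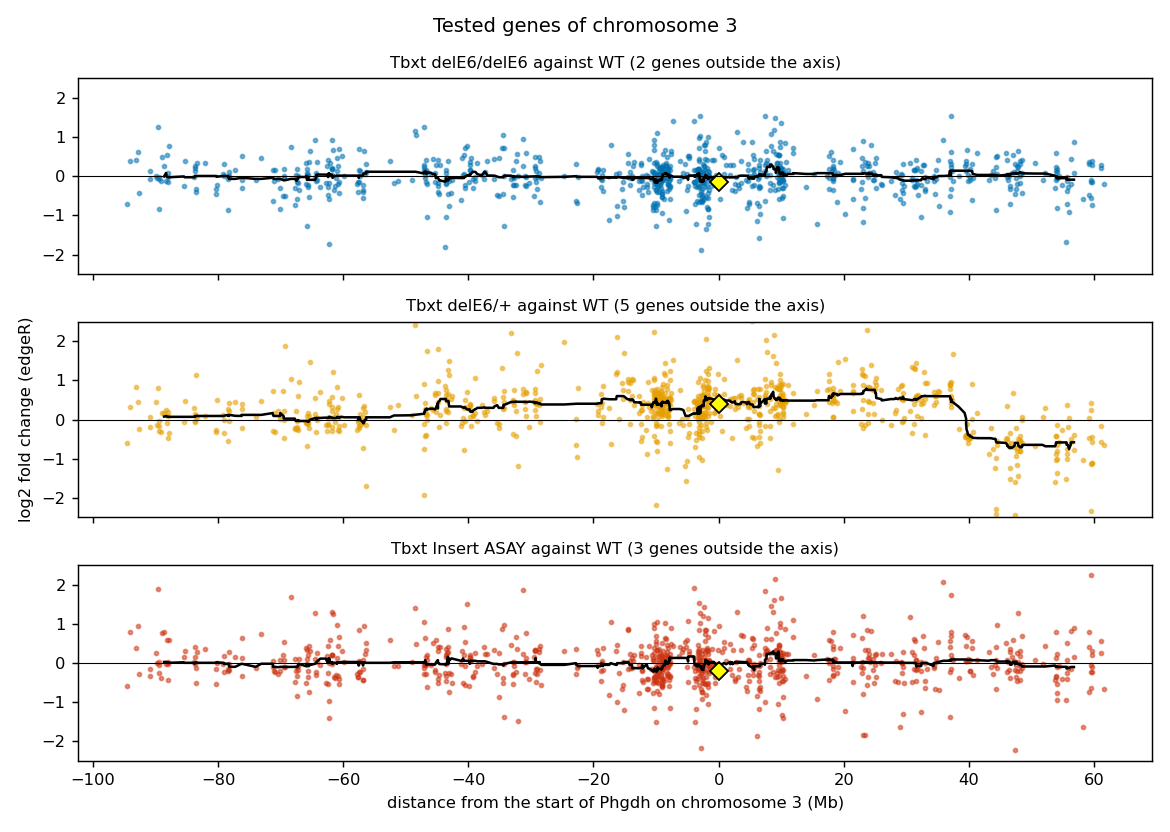
Log2 fold change against WT of the tested genes of chromosome 3, by distance in Mb from the start of *Phgdh*, with 1 panel per edited genotype. Points are genes, the line is a running median and the diamond is *Phgdh*. In *Tbxt* delE6/+ cells the line lies above 0 around *Phgdh*, where the 20 neighbours have a median of 0.51, and below 0 near the far end of the chromosome.

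3 genes of the lists below also lie on chromosome 3. *Sars*, the seryl-tRNA synthetase, at 108424865 to 108445209, was higher in *Tbxt* delE6/+ cells than in WT with a log2 fold change of 0.58 (adjusted p = 6.69e-07), and 7 of its 20 neighbours were called higher and 0 lower (median 0.49). *Cth*, which makes cysteine from cystathionine, at 157894248 to 157925077, fell there by 1.15 on the log2 scale (adjusted p = 1.76e-06). Of its 18 neighbours 8 were called lower and 0 higher (median -0.57). Of all tested genes 6.6% were called higher and 6.89% lower in *Tbxt* delE6/+ cells against WT. *Cth* had 140 and 142 CPM in WT, 63.5 and 64.0 CPM in *Tbxt* delE6/+ and 87.2 and 94.5 CPM in *Tbxt* Insert ASAY libraries. In *Tbxt* Insert ASAY cells *Cth* also fell, by 0.64 on the log2 scale (adjusted p = 0.000116), and its neighbours had a median of 0.18. *Slc7a11*, the cystine transporter, at 49892526 to 50443614, was higher by 0.61 in *Tbxt* delE6/+ cells (adjusted p = 0.0267) beside neighbours with a median of 0.12, and this call was lost without either WT library or the first *Tbxt* delE6/+ library (0.65, 0.56 and 0.38). The windows around these 3 genes were added after their values were seen.

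Among 24 other targets of *Atf4*, 2 rose and 8 fell in *Tbxt* Insert ASAY cells against WT, beside 11.5% and 9.85% of all genes, with a median log2 fold change of -0.37. At an adjusted p under 0.05 and any fold, 14 were lower and 4 higher, beside 24.1% and 23.2% of all genes, 47.3% together. *Slc7a5* and *Slc3a2*, the light and heavy chains of a leucine transporter, fell together. *Slc7a5* had 889 and 934 CPM in WT against 541 and 587 CPM in *Tbxt* Insert ASAY libraries, a log2 fold change of -0.69 (adjusted p = 9.26e-06). *Slc3a2* had 702 and 747 CPM against 398 and 430 CPM, a log2 fold change of -0.81 (adjusted p = 1.3e-05). *Fgf21*, a secreted stress hormone, had only 1.35 to 6.66 CPM in the 8 libraries, and it was called lower in all 3 edited genotypes, most so in *Tbxt* delE6/+ cells at -2.09 (adjusted p = 2.45e-05). Its call in *Tbxt* delE6/delE6 cells, at -0.69, was lost without either WT library or without the second *Tbxt* delE6/delE6 library (log2 fold changes of -0.75, -0.62 and -0.39). *Stc2*, a secreted glycoprotein, went the other way, from 13.5 and 12.5 CPM in WT to 25.1 and 26.2 CPM in *Tbxt* Insert ASAY libraries, a log2 fold change of 0.98 (adjusted p = 8.57e-06).

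Outside the naming rule, and picked after their values were seen, *Nupr1*, a stress-induced chromatin protein, fell from 93.7 and 92.7 CPM in WT to 38.1 and 42.8 CPM in *Tbxt* Insert ASAY libraries (log2 fold change -1.21, adjusted p = 2.8e-05). Like *Ddit3*, *Nupr1* differed between the *Tbxt* delE6/delE6 libraries, with a mean of 63.7 ± 19.4 CPM (SD, n = 2), and its log2 fold change there was -0.55 (adjusted p = 0.0078) with both and -0.27, not called, without the second. *Atf3*, a transcription factor of the same family as *Atf4*, fell by 0.81 on the log2 scale in *Tbxt* Insert ASAY cells (adjusted p = 3.27e-05). *Gdf15*, a secreted stress signal, fell by 0.96 there (adjusted p = 0.00145). It had only 3.33 to 7.49 CPM per library, and TREAT did not call its fall. *Ppp1r15a*, which brings a phosphatase to eIF2 and so ends the response, fell by 0.52 (adjusted p = 2.85e-05), which was -0.45 and not called without the first *Tbxt* Insert ASAY library. *Atf5*, a relative of *Atf4* with similar control at translation, rose by 0.62 (adjusted p = 6.99e-05), from 62.6 and 65.5 to 96.7 and 99.9 CPM. In *Tbxt* delE6/delE6 cells 4 of the 24 rose (*Slc7a11*, *Stc2*, *Atf5* and *Vldlr*) and 2 fell (*Fgf21* and *Nupr1*), beside 6.12% and 6.59% of all genes, with a median of 0.09. In *Tbxt* delE6/+ cells 2 rose and 4 fell, beside 6.6% and 6.89% of all genes, with a median of -0.01.

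Of 20 further enzymes of serine, glycine, proline and one-carbon metabolism, 1 rose and 2 fell in *Tbxt* Insert ASAY cells, with a median of -0.05, and the share called was 15.0%, below the 21.3% of all genes. *Aldh18a1*, the first enzyme of proline synthesis, fell from 205 and 210 CPM in WT to 135 and 152 CPM (log2 fold change -0.53, adjusted p = 0.000212), and the change was -0.44 and not called without the first *Tbxt* Insert ASAY library. *Aldh1l1*, a cytosolic folate enzyme, fell by 0.56 on the log2 scale (adjusted p = 0.00189). In *Tbxt* delE6/+ cells the mitochondrial serine transporter *Sfxn1* rose from 34.5 and 29.8 to 73.3 and 65.8 CPM (log2 fold change 1.11, adjusted p = 3.01e-06). *Psph*, the last enzyme of serine synthesis, passed in none of the 3 comparisons, with log2 fold changes from -0.13 to 0.04. It was picked to complete the serine route, after its values were seen.

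The cytosolic tRNA synthetases, several of which are known *Atf4* targets, differed by small amounts. In *Tbxt* Insert ASAY cells 3 of 20 fell and 0 rose, so that 15.0% were called, beside 9.85% of all genes called lower and 21.3% in either direction. At an adjusted p under 0.05 and any fold 14 were lower and 1 higher, beside 24.1% and 23.2% of all genes, with a median log2 fold change of -0.17. *Aars* fell from 999 and 1000 CPM in WT to 606 and 650 CPM (log2 fold change -0.67, adjusted p = 1.06e-05). *Yars* fell from 313 and 310 to 188 and 203 CPM (log2 fold change -0.67, adjusted p = 4.24e-06). *Eprs* fell by 0.50 (adjusted p = 2.01e-05), so near the threshold that most alternatives did not call it. In *Tbxt* delE6/+ cells *Sars* alone was called, beside 13.5% of all genes. At an adjusted p under 0.05 and any fold 10 of 20 were higher there and 0 lower, with a median of 0.146. Of all genes 31.6% passed on the p-value there in either direction. In *Tbxt* delE6/delE6 cells 0 were called by edgeR, where 9 had an adjusted p under 0.05, beside 12.7% and 35.4% of all genes.

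The ER unfolded protein response is run mainly by *Atf6* and *Xbp1* beside the *Atf4* arm. In *Tbxt* Insert ASAY cells 8 of its 21 genes fell and 0 rose, beside 9.85% of all genes called lower, with a median of -0.39. In *Tbxt* delE6/delE6 cells 3 fell and 0 rose, beside 6.59% of all genes called lower, with a median of -0.33. In each of the 2 genotypes 2 of the 21 had a positive log2 fold change. At an adjusted p under 0.05 and any fold, 16 and 14 of the 21 were lower, beside 24.1% and 17.1% of all genes. *Hspa5*, the ER chaperone BiP, had 782 and 778 CPM in WT, 519 and 510 CPM in *Tbxt* delE6/delE6, 857 and 914 CPM in *Tbxt* delE6/+ and 541 and 519 CPM in *Tbxt* Insert ASAY libraries. Its log2 fold change was -0.60 in *Tbxt* delE6/delE6 (adjusted p = 6.88e-06) and -0.56 in *Tbxt* Insert ASAY cells (adjusted p = 2.72e-06), and between these genotypes 0.04 (95% interval -0.05 to 0.14). *Calr* and *Hyou1*, a lectin chaperone and an exchange factor of BiP, fell likewise in both, *Calr* by 0.67 and 0.66 and *Hyou1* by 0.61 and 0.71 on the log2 scale. *Atf6*, the membrane-bound sensor, fell from 150 and 149 CPM in WT to 65.6 and 74.7 CPM in *Tbxt* Insert ASAY libraries (log2 fold change -1.09, adjusted p = 2.2e-06), and it was also lower there than in *Tbxt* delE6/delE6 cells by -0.73 (adjusted p = 0.000117). *Pdia6*, a disulfide isomerase, fell by 0.57 on the log2 scale in *Tbxt* Insert ASAY cells (adjusted p = 7.55e-06).

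**Figure D4:**
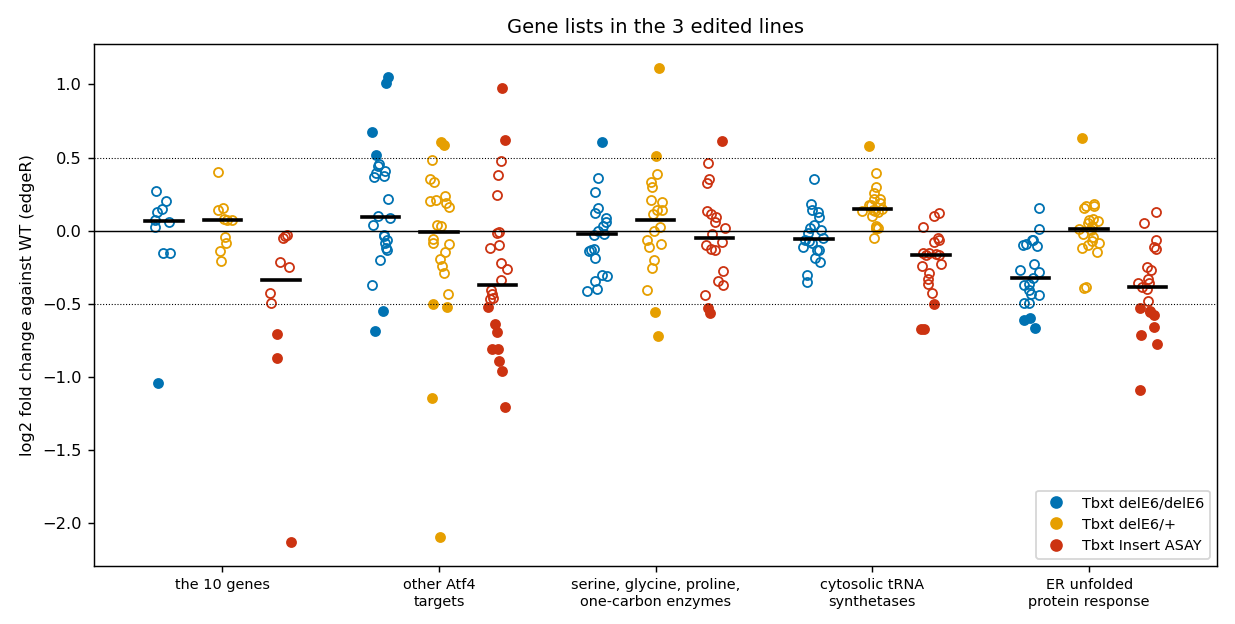
Log2 fold change against WT of every gene of the 10 and of 4 lists, for the 3 edited genotypes. Filled points were called, open points were not, and black bars are medians. In *Tbxt* Insert ASAY cells the medians are -0.34 for the 10 genes, -0.37 for other *Atf4* targets and -0.39 for the ER unfolded protein response, and -0.05 for the serine, glycine, proline and one-carbon enzymes.

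Of 13 eIF2 kinases, regulators and paralogs, 2 were called in *Tbxt* Insert ASAY cells against WT, 15.4% beside 21.3% of all genes. In *Tbxt* delE6/+ cells 1 was called and in *Tbxt* delE6/delE6 cells 2, beside 13.5% and 12.7% of all genes. Of the kinases that act on eIF2 upstream of *Atf4*, *Eif2ak2* (PKR) is activated by double-stranded RNA. *Eif2ak2* rose in *Tbxt* Insert ASAY cells with a log2 fold change of 0.52 (adjusted p = 0.00037) and was not called by TREAT. The ER kinase *Eif2ak3* (PERK) had -0.47 (adjusted p = 0.000438), the haem-regulated *Eif2ak1* 0.34 (adjusted p = 0.00237) and the amino acid sensor *Eif2ak4* (GCN2) 0.12 (adjusted p = 0.0913), all under the fold threshold. Of the paralogs of the 10 genes, *Chac2* rose by 0.92 in *Tbxt* Insert ASAY and by 0.70 in *Tbxt* delE6/delE6 cells (adjusted p = 0.000402 and 0.00473), *Trib2* rose by 1.20 in *Tbxt* delE6/+ cells (adjusted p = 2.75e-05), and *Sesn1* fell by 0.55 in *Tbxt* delE6/delE6 cells (adjusted p = 0.000778), or by 0.44 and not called without the second of those libraries. *Chac2* had only 70 to 154 reads per library and *Trib2* 97 to 227. TREAT did not call the changes of *Chac2* and *Sesn1* in *Tbxt* delE6/delE6 cells. *Trib1* had a log2 fold change of -0.27 in *Tbxt* Insert ASAY cells (adjusted p = 0.0157) and 0.29 in *Tbxt* delE6/delE6 cells (adjusted p = 0.0141), both under the fold threshold. *Sesn3* had 0.14 in *Tbxt* Insert ASAY cells (adjusted p = 0.047).

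The response element found in the promoters of *Chac1*, *Trib3* and *Asns* was also present in 8 of the 20 other *Atf4* targets with a RefSeq promoter, in 5 of 12 tRNA synthetases, in 1 of 15 serine, glycine, proline and one-carbon enzymes, in 1 of 18 ER genes and in 0 of 10 regulators and paralogs. Among tested genes with a RefSeq promoter 2.72% held it. *Asns*, *Slc7a11*, *Vldlr*, *Jdp2*, *Pck2*, *Slc1a4*, *Gars*, *Iars*, *Tars* and *Pycr1* held it and were not called in *Tbxt* Insert ASAY cells against WT. Of these *Slc7a11* had a positive log2 fold change of 0.475 there. The matches in *Yars*, *Nupr1*, *Fgf21* and *Atf3* were picked because these genes fell in *Tbxt* Insert ASAY cells. They are shown with the element in capitals, on the strand of each gene (RefSeq, GRCm38.p6).
Yars, chr4:129189896-129189925, plus strand: cgagctcagcTGATGCAACccgacgggact
Nupr1, chr7:126625562-126625591, minus strand: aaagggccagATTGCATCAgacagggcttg
Fgf21, chr7:45615611-45615640, minus strand: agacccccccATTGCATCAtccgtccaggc
Atf3, chr1:191183425-191183454, minus strand: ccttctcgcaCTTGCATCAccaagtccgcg
Over all 314 tested genes with the element, 13.4% were called lower and 12.7% higher in *Tbxt* Insert ASAY cells against WT, beside 10.1% and 11.8% of the 11247 without it, and the medians were -0.06 and 0.00.

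Across the 8 libraries the 10 genes did not all follow each other. The correlation of a gene's log2 CPM with the mean of the other 9 was 0.96 for *Asns*, 0.94 for *Trib3*, 0.93 for *Chac1*, 0.91 for *Mthfd2*, 0.84 for *Atf4* and 0.79 for *Ddit3*. It was 0.61 for *Psat1*, 0.59 for *Phgdh*, 0.52 for *Sesn2* and 0.22 for *Shmt2*. These values describe 8 libraries of 4 genotypes and are dominated by the *Tbxt* Insert ASAY libraries, in which the mean of the 10 genes lay 0.45 and 0.33 below its average on the log2 scale. Of 9624 other genes that averaged 10 CPM or more, those most like the mean of the 10 included *Sbf2* (r = 0.991), *Ctps* (0.987), *Hars* (0.986) and *Lonrf1* (0.985). *Ctps* makes CTP and *Hars* is the histidyl-tRNA synthetase. Their changes in *Tbxt* Insert ASAY cells were small, from -0.44 for *Lonrf1* to -0.16 for *Hars* on the log2 scale.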

How the data were processed

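Read counts were analysed for 8 poly(A) RNA libraries of 4 genotypes. For each library the authors deposited whole-number counts per gene, not normalized, in 3 strand columns. They come from STAR 2.7.2a, and mm10 (GRCm38) is the build named in the submitters' processing notes. The opposite-strand column was used, since the other strand holds only 4.11% to 4.78% of stranded reads. Reads that STAR did not assign to a gene (26.2% to 29.0% where given) stayed out of library sizes and tests. They stand in 4 lines, which the first WT file does not have. The annotation used for counting is not given in the sources used here, and GENCODE M21 gave symbols to 48058 of 48440 identifiers. Depth limits low genes such as *Fgf21* (33 to 179 reads).

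Counts were fitted with edgeR 4.0.16 in R 4.3.3 (TMM, filterByExpr with a minimum count of 10 and total of 15, 1 coefficient per genotype, quasi-likelihood test). Thresholds follow the study, whose authors used DESeq2 1.40.2. Alternatives were DESeq2 1.42.0, its size factors, other filters, unstranded counts, fits of only the groups compared, a replicate block, TREAT, TMM without chromosome 3 and leaving out each library. The steps were tested on simulated data. Tables and plots used Python 3.11.15, numpy 2.4.6, pandas 2.3.3 and matplotlib 3.10.9.

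All 10 genes are named. From each list the text names up to 5 genes called in a comparison with WT, by smallest adjusted p, and others are marked. A few genes and 1 sequence that these rules would name are not reported here. Members and lists were chosen with earlier results of these data known. Replicates are biological by the study's methods.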

Additional observations from a re-analysis of the deposited data

How the results depend on the processing

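Each of the 60 differences between genotypes, for the 10 genes in 6 comparisons, was recomputed under each alternative, 1020 values in all. Of these 989 kept their direction and their side of both thresholds, 12 became called, 9 were no longer called and 10 changed sign. The DESeq2 Wald test, its size factors, unstranded counts, fits of only the groups compared, a minimum of 10 reads in every library and TMM without chromosome 3 changed at most 1 call each, that of *Atf4* between *Tbxt* Insert ASAY and *Tbxt* delE6/delE6 cells.

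By TREAT the genes called among the 10 numbered 0 in place of 1 for *Tbxt* delE6/delE6 against WT, 2 in place of 3 for *Tbxt* Insert ASAY against WT (without *Chac1*), 3 in place of 4 for *Tbxt* Insert ASAY against *Tbxt* delE6/+ (without *Trib3*), 1 in place of 2 for *Tbxt* delE6/+ against *Tbxt* delE6/delE6 and 0 in place of 4 for *Tbxt* Insert ASAY against *Tbxt* delE6/delE6. In the lists, given in the order *Tbxt* delE6/delE6, *Tbxt* delE6/+ and *Tbxt* Insert ASAY against WT, TREAT called 1, 2 and 5 other *Atf4* targets in place of 6, 6 and 10, and 0, 2 and 0 serine, glycine, proline and one-carbon enzymes in place of 1, 4 and 3. It called 0 tRNA synthetases in place of 1 in *Tbxt* delE6/+ cells, and 0, 0 and 4 ER genes in place of 3, 1 and 8. TREAT asks for a larger change by its construction. The 51 calls against WT of single genes of the lists gave 867 recomputed values, of which 799 stayed called and 0 changed sign, and 33 of the 68 lost calls were under TREAT.

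Leaving out each library in turn left 3 to 4 of the 10 called for *Tbxt* Insert ASAY against WT, 3 to 5 against *Tbxt* delE6/delE6, and the same number in the other comparisons. In the same order, the other *Atf4* targets ranged from 4 to 7, 3 to 6 and 10 to 12, the serine, glycine, proline and one-carbon enzymes from 0 to 2, 2 to 4 and 2 to 3, the tRNA synthetases from 2 to 3 in *Tbxt* Insert ASAY cells, and the ER genes from 3 to 6 in *Tbxt* delE6/delE6 and 8 to 9 in *Tbxt* Insert ASAY cells. The 10 changes of sign, each when 1 library was left out, all concern differences that were not called. Against WT, the log2 fold change in *Tbxt* delE6/delE6 cells ranged from -0.013 to 0.157 for *Atf4*, from -0.017 to 0.404 for *Chac1*, from -0.014 to 0.13 for *Mthfd2* (lowest without the first *Tbxt* delE6/delE6 library) and from -0.012 to 0.058 for *Asns*, which was also at -0.001 without that library. *Tbxt* delE6/+ against *Tbxt* delE6/delE6 ranged from -0.189 to 0.09 for *Trib3* and from -0.325 to 0.099 for *Chac1*. *Shmt2* in *Tbxt* Insert ASAY cells ranged from -0.061 to 0.003 against WT and from -0.008 to 0.045 against *Tbxt* delE6/+, and *Sesn2* in *Tbxt* Insert ASAY against WT from -0.114 to 0.03.

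Same-numbered libraries did not deviate together (correlations of deviations from -0.10 to 0.07 over 12837 genes). Sample titles do not say whether same-numbered libraries were prepared together, and these correlations cannot settle it, since a shared preparation need not leave a shared deviation. A fit with the replicate number as a block left 1, 0, 3, 2, 4 and 4 of the 10 genes called in the 6 comparisons, the same counts as without the block, and changed no call among the 10. Among the list genes it ended 1 call, that of *Eprs* in *Tbxt* Insert ASAY cells, at -0.50.

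With 2 libraries per genotype the edgeR test borrows its spread from all genes and all genotypes, and leaving out a library assumes that the lone one varies like the others. The clones behind each genotype are few, so that a difference between genotypes and one between clones cannot be told apart. With 1 library for each of the 2 *Tbxt* delE6/delE6 clones, a difference between clones and one between libraries cannot be told apart either. Counts per gene measure mRNA and do not measure translation, on which *Atf4* depends.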

Other observations

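The following genes were picked after their values were seen. *Herpud1*, which helps clear misfolded protein from the ER, carried the response element at its promoter and moved in opposite directions, with 64.7 and 65.1 CPM in WT, 98.9 and 102 CPM in *Tbxt* delE6/+ and 37.5 and 38.3 CPM in *Tbxt* Insert ASAY libraries. Its log2 fold changes were 0.63 in *Tbxt* delE6/+ (adjusted p = 0.000257) and -0.77 in *Tbxt* Insert ASAY cells (adjusted p = 5.66e-05). Of the other ER stress sensors, *Ern1* (IRE1) fell by 0.53 on the log2 scale in *Tbxt* Insert ASAY cells (adjusted p = 0.000156), while *Xbp1*, whose mRNA IRE1 splices, had 0.13 (adjusted p = 0.103). The C/EBP partners of *Atf4* had log2 fold changes of -0.46 for *Cebpg* (adjusted p = 0.00029) and -0.47 for *Cebpb* (adjusted p = 0.000325) in *Tbxt* Insert ASAY cells, both under the fold threshold. *Dele1*, which carries mitochondrial stress to the eIF2 kinases, had -0.46 there (adjusted p = 9.19e-05). *Ddit4*, an mTORC1 inhibitor that *Atf4* induces, went the other way, with 0.25 in *Tbxt* Insert ASAY (adjusted p = 0.00131) and 0.37 in *Tbxt* delE6/delE6 cells (adjusted p = 0.000233).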
